A study of Mus musculus with 8 samples.

Results

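Replication-dependent histone genes were examined in mouse kidneys after cisplatin, a platinum drug used against tumours that is toxic to the proximal tubule of the kidney. A gene was taken when its symbol began with Hist1h, Hist2h, Hist3h or Hist4h, its biotype was protein-coding and its row of the deposited count table held 8 values, 1 for each library. In all, 67 genes matched by symbol and biotype, and 30 of them had 8 values, among 35880 genes in such rows. The other 37 stood in rows with 10 values, 2 more than the table names, and were not analysed here, Hist1h1c and Hist1h2bc among them. The 30 genes comprised 3 for H1, 10 for H2A, 6 for H2B, 4 for H3 and 7 for H4.

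The study took kidneys from wild-type C57/BL6J mice, described as male in its methods, 72 h after injection. The control mice received saline, and the cisplatin mice received 23 mg/kg cisplatin by intraperitoneal injection. Each group had 4 libraries, numbered 1, 2, 3 and 5 for control and 1, 3, 4 and 6 for cisplatin. The study describes 4 mice per group, so each library is taken as 1 mouse. The libraries were made from whole kidney, and a change in the share of a cell type cannot be told apart from a change in the RNA made per cell.

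Histones H2A, H2B, H3 and H4 form the protein core around which DNA is wound, and H1 binds the linker DNA between the cores. The replication-dependent genes lie in clusters, mostly lack introns, and are expressed when DNA is copied. Their mRNAs are the known exception among protein-coding transcripts. They end in a short stem-loop that binds the protein Slbp, instead of a poly(A) tail. Some of these genes also give longer transcripts that pass the stem-loop and are polyadenylated, and this is known mainly from differentiated cells. According to the labels the libraries were made from poly(A) RNA, and if so the position of the stem-loop within each gene model matters for what could be counted. The study's methods name another library kit than the labels, so whether poly(A) RNA was selected as the labels say is itself in doubt.

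The stem-loops are shown because they mark the 3′ end that a poly(A) selection, if it was used, would not capture. Of the 30 genes, 19 had the letters of a histone stem-loop after the stop codon in a transcript of GENCODE M21 (build GRCm38), and these fell into 4 sequences of 16 bases. Capitals mark the arms of the stem and lower case the loop.
12 genes of H1, H2A, H2B and H3: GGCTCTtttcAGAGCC
Hist1h4c, Hist1h4d, Hist1h4h, Hist1h4n and Hist4h4: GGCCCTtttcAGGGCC
Hist1h4a: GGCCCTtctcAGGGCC
Hist2h4: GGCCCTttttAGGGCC
The H4 genes differed from the 12 others in both arms. Hist1h4a and Hist2h4 differed from the other H4 genes in the loop. The stem-loop of Hist1h4a lies at chr13:23760800-23760815 on the minus strand, 30 bases after the stop codon, and that of Hist2h4 at chr3:96262939-96262954 on the minus strand, 38 bases after it.

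Counts differed with the annotated end of the gene model. In 9 genes the model ended at the coding region, and these had 0 to 4 counts over all 8 libraries together. In 7 genes it ended within 100 bases of the stem-loop, and 1 of these, Hist1h4h, passed the filter on low counts. In 12 genes it ran further past the stem-loop, and 11 of these passed the filter. Hist1h4a, whose model ends 108 bases past the stem-loop, was just outside the limit of 100 bases, and Hist1h4h, with 46 bases, was inside it. The remaining pair, Hist2h2be and Hist2h3b, held no stem-loop letters, and Hist2h2be passed. Among the 12 genes with longer models, Hist2h3c1 alone was not tested. Every stretch of 150 bases, the read length, in its transcript also occurs in another gene, so reads from it have more than 1 possible source. The gene model's end moves together with its length and with the share of its sequence found in other genes, and their separate parts in the counts were not tested.

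**Figure D1:**
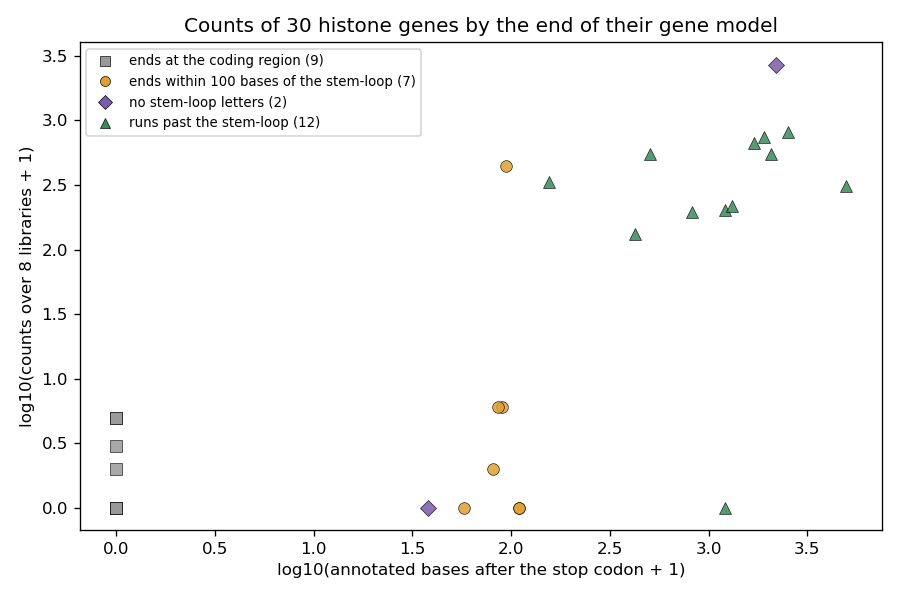
Total count of each of the 30 histone genes over 8 libraries, as log10(count + 1), against the annotated bases after the stop codon, as log10(bases + 1), with symbols by the end of the gene model. Genes whose model ends at the coding region have at most 4 counts, and 11 of the 12 genes whose model runs past the stem-loop have 131 to 812.

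Of the 30 genes, 13 (43.3%) passed the filter and were tested, and the other 17 were not. Of these 17, 10 were at 0 in every library. The other 7 were Hist1h2ad, Hist1h2an, Hist1h2ao, Hist1h2bl, Hist1h2bn, Hist1h3h and Hist1h4n, with at most 3 counts in a library. Together the 17 had 0 counts in the control libraries and 22 in the cisplatin libraries. At this depth no difference could be measured for any 1 of them.

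Libraries stood apart in ways the labels do not describe. The total count over the rows used ran from 10953338 to 16701599. The second principal component of all tested genes held 15.96% of the variance and placed control 5, cisplatin 4 and cisplatin 6 on the negative side and the other 5 libraries on the positive side. The 3 are referred to as the second library set, and the 5 as the first. The summed level of the Y-linked genes Kdm5d and Eif2s3y was 0.227 CPM (counts scaled to a common library size with TMM factors) in cisplatin 1 and 0 in cisplatin 3, against 72.2 to 149.9 in the other libraries, although the study describes the mice as male. The kidney identity of the samples was clear in the controls, where the phosphate transporter gene Slc34a1 stood at 10270 to 14560 CPM. It fell by 5.35 on the log2 scale after cisplatin (adjusted p = 0.000169, edgeR). The injury markers Lcn2 and Havcr1 rose by 9.23 and 8.27 on that scale.

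Most of the histone genes tested were up-regulated in cisplatin kidneys. A gene was called at an adjusted p under 0.05 and a log2 fold change of at least 1 in either direction, from edgeR's quasi-likelihood test over 9141 genes. By this rule 10 of 13 histone genes (76.9%) were called higher, where 19.2% of all genes tested were called higher. None was called lower, where 15.7% of all genes were, and 0 of the 13 were lower at an unadjusted p under 0.05 or by DESeq2. In 9 of the 13 every cisplatin library lay above every control library, as in 23.7% of all genes tested. The median log2 fold change of the 13 was 1.83 (range -0.67 to 7.66), against 0.08 over all genes tested. Of the 13, 5 reached the level set by the filter in all 4 control libraries, and 3 of these, Hist1h2be, Hist1h4c and Hist2h2be, were called higher. The other 8 were below it in at least 1 control library and reached it in all 4 cisplatin libraries. They would not have passed on the control libraries alone. The count and the median over the 13 thus describe the genes that passed and not the 30.

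**Figure D2:**
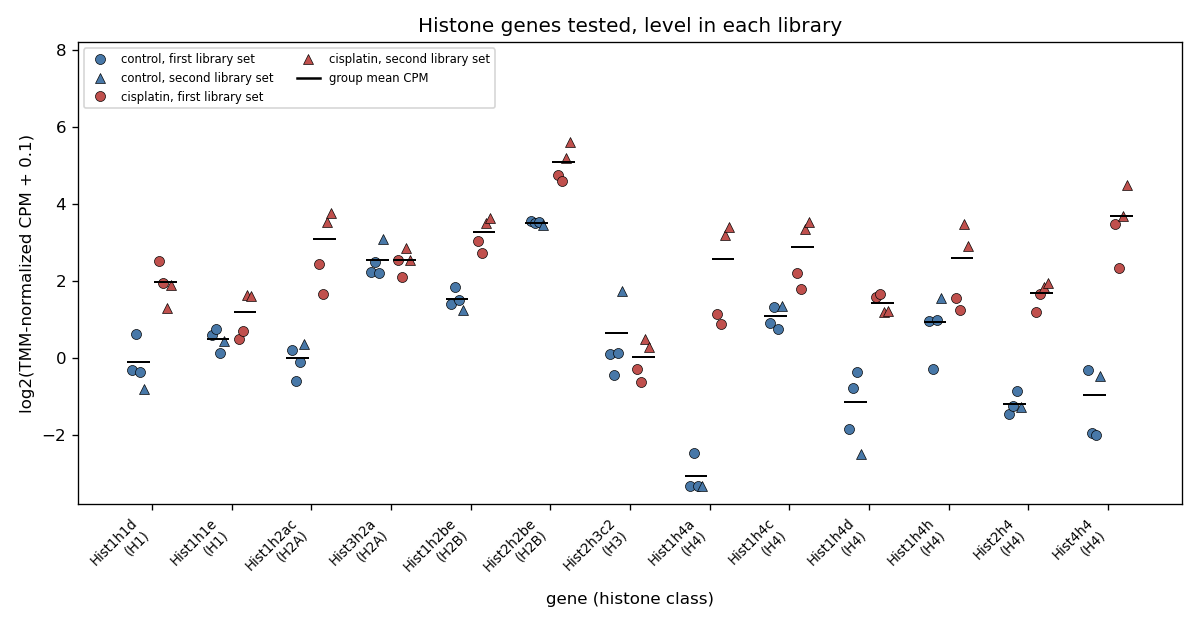
Level of the 13 histone genes tested in each library, as log2 of TMM-normalized CPM plus 0.1, with circles for the first and triangles for the second library set and a line at each group's mean. The cisplatin libraries (red) lie above all control libraries (blue) in 9 genes, and Hist1h1e, Hist3h2a, Hist2h3c2 and Hist1h4h overlap.

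The H4 genes included the 2 highest fitted fold changes, those of Hist1h4a and Hist4h4, and also the second lowest among the 10 called, that of Hist1h4h. H4 is among the most conserved proteins known, and the 6 H4 genes tested encode the same 103 residues, while their coding sequences share 85.3% to 96.2% of bases. All 6 were called higher, with a median log2 fold change of 2.998. Only Hist1h4c among them reached the filter level in all 4 control libraries. The others would not have passed on the control libraries alone, so this count and median are a description of the genes that passed. Summed over the 7 H4 genes, the level rose from 5.00 ± 0.911 CPM in control to 37.7 ± 18.6 CPM in cisplatin kidneys (mean ± SD, n = 4 each), a ratio of 7.54, with no overlap.

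Hist1h4a had 0, 1, 0 and 0 counts in control 1, 2, 3 and 5, which corresponds to 0 to 0.0798 CPM. It had 46, 32, 123 and 133 counts in cisplatin 1, 3, 4 and 6, or 2.09, 1.76, 9.01 and 10.6 CPM. The gene was thus near 0 in every control library and present in every cisplatin library, with the second library set above the first. With 1 count in all controls against 334, the ratio was 250 (95% exact interval 44.6 to 9904, counting error only). The fitted log2 fold change of 7.66 (SE 1.06, adjusted p = 0.00032) depends on the prior count. It was 9.42 (adjusted p = 0.0038) without control 2, which held the only control count, and 5.74 (adjusted p = 0.000275) in the first library set alone. Of the 150-base stretches of its transcript, 23.1% also occur in other H4 genes, such as Hist1h4b and Hist1h4c.

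Hist4h4 stands alone on chromosome 6 (chr6:136801553-136804415), outside the histone clusters, and 0.744% of its stretches are shared. Its level was 0.708, 0.160, 0.152 and 0.629 CPM in control 1, 2, 3 and 5, and 11.01, 5.00, 12.8 and 22.5 CPM in cisplatin 1, 3, 4 and 6. The lowest cisplatin library was above the highest control library, and the spread among cisplatin libraries was wide. The log2 fold change was 4.95 (SE 0.63, adjusted p = 0.000184), from 2 to 8 counts in each control library.

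Hist2h4 and Hist1h4d share no 150-base stretch with another gene. Hist2h4 stood at 0.266, 0.319, 0.455 and 0.315 CPM in the controls and at 2.18, 3.08, 3.51 and 3.73 CPM in the cisplatin libraries, in the same library order. The levels lay close together within each group, though the controls held only 3, 4, 6 and 4 counts. The log2 fold change was 3.16 (SE 0.35, adjusted p = 8.4e-05). Hist1h4d stood at 0.177, 0.479, 0.683 and 0.0786 CPM and at 2.91, 3.08, 2.20 and 2.22 CPM, a log2 fold change of 2.84 (SE 0.51, adjusted p = 0.0014). The controls held 2, 6, 9 and 1 counts of Hist1h4d, and those of control 1 and control 5 lie under the smallest measurable level of 3 counts. Among cisplatin libraries, Hist1h4d was slightly lower in the second library set than in the first.

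Hist1h4c and Hist1h4h were already measurable in every control library. Hist1h4c rose from 1.77, 2.39, 1.59 and 2.44 CPM to 4.50, 3.36, 10.1 and 11.4 CPM, by 1.83 on the log2 scale (SE 0.43, adjusted p = 0.00629). Hist1h4h stood at 1.86, 0.718, 1.90 and 2.83 CPM in control and at 2.87, 2.26, 11.1 and 7.45 CPM in cisplatin libraries. Its groups overlapped, since control 5 lay above cisplatin 3. Its log2 fold change was 1.68 (SE 0.58, adjusted p = 0.0354), and the call was lost without control 1, 2 or 3 or without cisplatin 4 or 6, with adjusted p from 0.0749 to 0.105. Among the H4 genes, 28.0% of the stretches of Hist1h4h and 7.6% of those of Hist1h4c are shared.

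Per kilobase of annotated exon, the H4 genes tested ranged in control kidneys from 0.037 CPM for Hist1h4a to 3.88 CPM for Hist1h4h, with 2.50 CPM for Hist1h4c. The value of Hist1h4a is that of 1 count over all controls. In cisplatin kidneys the highest per kilobase were Hist1h4h at 12.6 CPM, Hist1h4a at 10.9 CPM and Hist1h4c at 8.96 CPM. Among the H4 genes tested, Hist1h4a thus moved from the lowest level per length, too low to be measured, to one near that of Hist1h4h. The spread between cisplatin libraries covers the difference between these 3 genes in cisplatin kidneys.

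**Figure D3:**
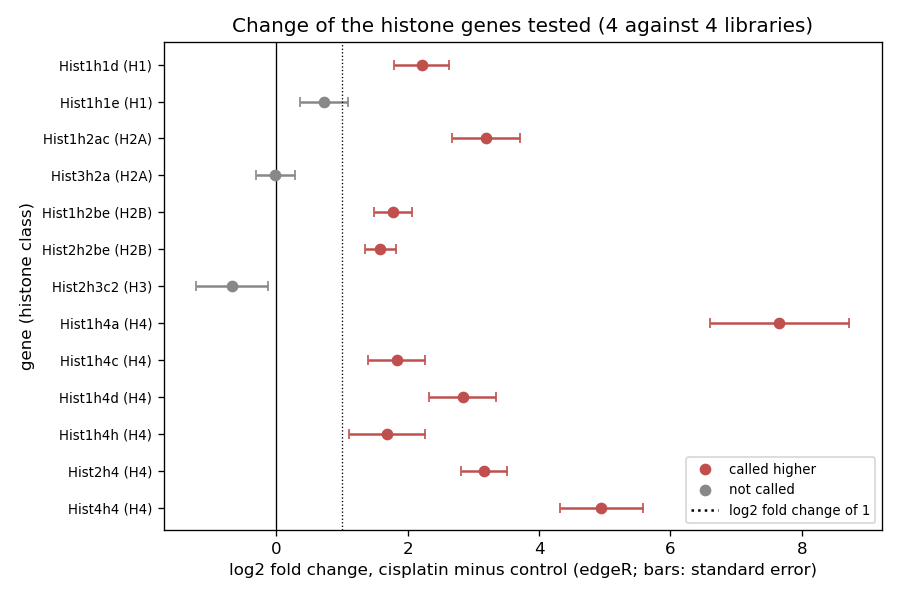
Log2 fold change (cisplatin minus control, edgeR, 4 against 4 libraries) of the 13 histone genes tested, with bars for the standard error and a dotted line at 1. The 10 genes called higher (red) range from 1.58 for Hist2h2be to 7.66 for Hist1h4a, and Hist1h1e, Hist3h2a and Hist2h3c2 (grey) were not called.

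The H2B genes tested were both called higher, and they included the most abundant gene of the whole group. H2B pairs with H2A in the nucleosome core. Hist2h2be held 11.7, 11.3, 11.5 and 10.9 CPM in control 1, 2, 3 and 5, and 26.9, 24.1, 36.7 and 48.5 CPM in cisplatin 1, 3, 4 and 6. The controls lay close together and every cisplatin library was higher. The log2 fold change was 1.58 (SE 0.23, adjusted p = 0.000454). It also had the highest level per kilobase, 4.32 CPM in control and 12.99 CPM in cisplatin kidneys. Its model holds no stem-loop letters and no stretch shared with another gene.

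Hist1h2be rose from 2.57, 3.51, 2.73 and 2.28 CPM to 8.10, 6.54, 11.2 and 12.4 CPM, by 1.78 on the log2 scale (SE 0.29, adjusted p = 0.000839). Its groups did not overlap. Its gene model overlaps Hist1h1e on the same strand, and 9.36% of its stretches occur elsewhere.

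The H2A genes divided. Hist1h2ac, in the large cluster on chromosome 13, rose from 1.06, 0.558, 0.834 and 1.18 CPM to 5.32, 3.08, 11.6 and 13.5 CPM, by 3.19 on the log2 scale (SE 0.52, adjusted p = 0.000795), with no overlap. Hist3h2a, on chromosome 11 at chr11:58954685-58956830, stood at 4.61, 5.58, 4.55 and 8.41 CPM in control and 5.78, 4.18, 7.17 and 5.79 CPM in cisplatin libraries. Its groups overlapped fully, with a log2 fold change of -0.02 (SE 0.29, adjusted p = 0.969). The proteins these genes encode differ at 1 of 130 residues. In Hist3h2a 28.0% of the stretches are shared with Trim17, so part of its count may be of that gene.

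The H1 genes were mixed as well. Hist1h1d rose from 0.708, 1.44, 0.683 and 0.472 CPM to 5.59, 3.79, 2.34 and 3.65 CPM, by 2.22 on the log2 scale (SE 0.42, adjusted p = 0.00199). No library of either group overlapped the other. Hist1h1e stood at 1.42, 1.60, 0.986 and 1.26 CPM and at 1.32, 1.54, 3.002 and 2.93 CPM, with a log2 fold change of 0.73 (SE 0.37, adjusted p = 0.131). Its first-set cisplatin libraries lay among the controls and only those of the second set lay above them. Without cisplatin 1 and 3 it was called, with 1.18 (adjusted p = 0.0153). In Hist1h1e 19.5% of the stretches also occur in Hist1h2be or Gm11398, which overlap it on the same strand. Part of its count may be of those genes.

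Of the H3 genes only Hist2h3c2 was tested, and it did not pass. It stood at 0.974, 0.638, 0.986 and 3.22 CPM in control and at 0.728, 0.550, 1.32 and 1.11 CPM in cisplatin libraries. Control 5 was the highest of all 8, and without it the log2 fold change moved from -0.67 (SE 0.54, adjusted p = 0.332) to 0.06 (adjusted p = 0.915). With the library set as a covariate it was -0.85 (adjusted p = 0.0437), which passes the adjusted p but not the fold threshold. Of its 150-base stretches 59.4% occur also in other genes, among them Hist2h3b and Hist2h3c1.

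Summed over the 30 genes, the level was 27.8, 28.8, 27.0 and 34.0 CPM in control 1, 2, 3 and 5 and 79.6, 62.8, 122.3 and 145.8 CPM in cisplatin 1, 3, 4 and 6. The means were 29.4 ± 3.14 and 102.6 ± 38.2 CPM (SD, n = 4), a ratio of 3.49. The share of H4 in this sum was 14.4% to 18.5% in control and 29.6% to 39.8% in cisplatin libraries. That of H2A was 19.9% to 28.2% and 11.9% to 15.4%, and that of H3 2.22% to 9.49% and 0.762% to 1.197%. Those of H1 and H2B overlapped between the groups. These sums cover the 30 rows used and are not the full histone mRNA of the kidney.

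By position, the genes called higher lay in several places. Of 11 genes between chr13:23531050-23934851, 8 were tested and 7 called higher. Of 9 genes between chr13:21715763-21833507, none was tested. Of 8 genes between chr3:96221119-96270132, 3 were tested and 2 called higher, Hist2h2be and Hist2h4, and 5 were at 0. In this last cluster Hist2h2aa1, Hist2h2aa2, Hist2h2bb, Hist2h3b and Hist2h3c1 share every 150-base stretch with another gene. Each of them shares stretches with a gene whose model overlaps its own, on the same or the other strand. For Hist2h2bb the only such genes are Gm20628 and Gm42743, so its sharing is not with a separate histone gene.

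Promoters were examined because the H4 genes tested encode an identical protein and were all called higher. Only Hist1h4c among them would have passed the filter on the control libraries alone. RefSeq windows from 250 bases before to 50 bases after the start (GRCm38.p6) matched 28 of the 30 genes, all but Hist2h2be and Hist2h4. Motifs were searched on both strands. A TATA box (TATAAA or its reverse complement TTTATA) was in 15 of 28 windows and in 13.6% of all 32851 windows. A CCAAT box (CCAAT or ATTGG) was in 25 of 28 and in 37.4% of all windows, and an octamer (ATTTGCAT or ATGCAAAT) in 5 of 28 and in 1.74%. Among the 11 matched genes that were tested, the counts were 5, 9 and 2. Among the 6 H4 windows, tested or not, they were 3, 3 and 0. Every window of an H1, H2A, H2B or H3 gene held a CCAAT box. The windows of 3 up-regulated H4 genes follow, with these motifs in capitals, for Hist1h4a at chr13:23761200-23761499 (minus strand), Hist1h4d at chr13:23581318-23581617 (plus strand) and Hist4h4 at chr6:136804382-136804681 (minus strand).
Hist1h4a: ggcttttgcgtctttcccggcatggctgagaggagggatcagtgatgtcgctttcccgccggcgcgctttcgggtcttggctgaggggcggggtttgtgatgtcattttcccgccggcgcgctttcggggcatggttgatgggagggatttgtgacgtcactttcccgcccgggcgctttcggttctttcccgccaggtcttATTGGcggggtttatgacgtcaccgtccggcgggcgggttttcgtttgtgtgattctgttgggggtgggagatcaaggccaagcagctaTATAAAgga
Hist1h4d: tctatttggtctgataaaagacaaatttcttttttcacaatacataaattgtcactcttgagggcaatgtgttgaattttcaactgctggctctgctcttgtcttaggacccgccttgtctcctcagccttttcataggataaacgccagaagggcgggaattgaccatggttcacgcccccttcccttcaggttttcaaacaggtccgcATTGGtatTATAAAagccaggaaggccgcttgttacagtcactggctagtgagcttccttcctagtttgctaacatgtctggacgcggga
Hist4h4: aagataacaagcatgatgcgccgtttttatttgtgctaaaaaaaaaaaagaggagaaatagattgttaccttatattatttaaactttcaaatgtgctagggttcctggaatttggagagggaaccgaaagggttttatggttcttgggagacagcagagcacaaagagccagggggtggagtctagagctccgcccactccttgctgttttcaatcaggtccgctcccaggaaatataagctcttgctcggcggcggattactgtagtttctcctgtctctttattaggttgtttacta
Hist1h4a and Hist1h4d each hold 1 TATA and 1 CCAAT match. The TATA letters of Hist1h4a lie at the very end of its window, after the start, and those of Hist1h4d lie before the start. The window of Hist4h4, the H4 gene with the second highest fitted fold change, has none of the letters searched. A match is a description of the letters and not of a bound site.

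The cisplatin libraries differed among themselves, so the histone genes were set beside RNAs that are known to lack a poly(A) tail. Rn7sk, the RNA of the 7SK particle that holds back transcription elongation, stood at 23.6, 10.2, 7.96 and 1.57 CPM in control 1, 2, 3 and 5 and at 23.5, 18.0, 45.8 and 55.2 CPM in cisplatin 1, 3, 4 and 6. Scarna2, a Cajal body RNA, stood at 3.10, 2.23, 2.12 and 0.236 CPM and at 2.41, 2.59, 5.05 and 7.53 CPM. Both were lowest in control 5 and highest in cisplatin 4 and 6, and in cisplatin 1 and 3 they overlapped the controls. Their log2 fold changes were 1.72 (adjusted p = 0.0519) and 1.18 (adjusted p = 0.142), and neither was called. For 28 such RNAs listed, 19 rows had values, with Rnu3a and Rnu3b1 repeated. Of these rows 10 were at 0 in every library, 4 were tested and 1 was called higher. Of all genes tested, 19.2% were called higher.

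The gene called was Gm26917, a long noncoding RNA gene on chromosome 17 whose place in the list is an assumption. It stood at 190, 164, 214 and 122 CPM in control and at 2524, 1487, 8348 and 9257 CPM in cisplatin libraries, a log2 fold change of 4.97 (SE 0.62, adjusted p = 0.000168). It held 87.4% to 99.4% of the summed level of the list. The other listed RNAs together were 13.5 ± 10.3 CPM in control and 41.4 ± 20.6 CPM in cisplatin libraries and overlapped. Genes of the rRNA biotype together were 619 ± 434 and 1041 ± 229 CPM and overlapped, as did the snRNA, snoRNA and scaRNA biotypes.

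With the summed level of all listed RNAs as a covariate, 0 of 13 histone genes were called, 4 were higher at an unadjusted p under 0.05 and the smallest adjusted p was 0.0761. Over all genes 5.86% were then called higher. The covariate itself did not overlap between the groups. With Gm26917 left out of it, a choice made after seeing the data, 8 of 13 were called higher, where 12.4% of all genes were. The part of RNA without a poly(A) tail in the histone result cannot be told apart from cisplatin in the first of these fits, and in the second the calls of Hist1h4c and Hist1h4h were lost.

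**Figure D4:**
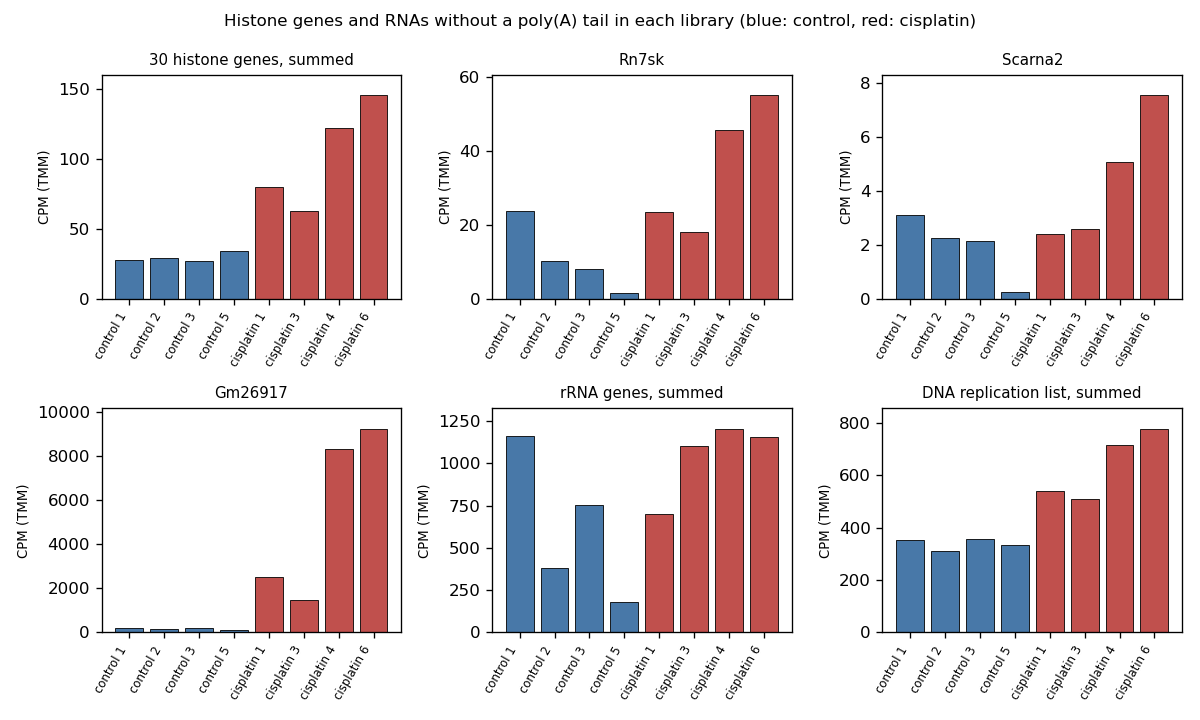
Level in each library (TMM-normalized CPM, bars from 0, 1 bar per library, blue for control and red for cisplatin) of the 30 histone genes summed, Rn7sk, Scarna2, Gm26917, the rRNA genes summed and the DNA replication list summed. Histone genes, Gm26917 and the replication list are higher in all 4 cisplatin libraries than in any control library, whereas Rn7sk, Scarna2 and the rRNA genes overlap between the groups.

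Within each library set the direction of the called genes is given as a description. They were called from these same libraries, so ratios above 1 are no separate check. The same count over all genes called was not made. In the first set, cisplatin 1 and 3 over control 1, 2 and 3, the ratio of mean levels of the 10 called genes ran from 1.72 for Hist1h4h to 72.4 for Hist1h4a, and all 10 were above 1. In the second set, cisplatin 4 and 6 over control 5, it could be computed for 9 and ran from 3.27 for Hist1h4h to 28.1 for Hist1h4d, all above 1. Hist1h4d had 1 count in control 5, under the smallest measurable level of 3 counts, so the size of its ratio was not measured. Hist1h4a had 0 counts in control 5. For the summed genes the ratios were 2.56 and 3.95. Among cisplatin libraries, 8 of the 10 called genes were higher in the second set than in the first, up to 5.08 times for Hist1h4a, and Hist1h1d and Hist1h4d were lower, at 0.638 and 0.737 times. The sets also divide the cisplatin libraries by Y-linked counts, which cisplatin 1 and 3 almost lacked. A fit of the first set alone called 8 of 13 higher, where 17.5% of all genes were. In that fit the treatment cannot be told apart from the lack of Y-linked counts. In it Hist1h4c stood at 0.98 (adjusted p = 0.0255), just under the fold threshold, and Hist1h4h at 0.73 (adjusted p = 0.166). The second set has 1 control library, so its ratios have no replicate check.

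**Figure D5:**
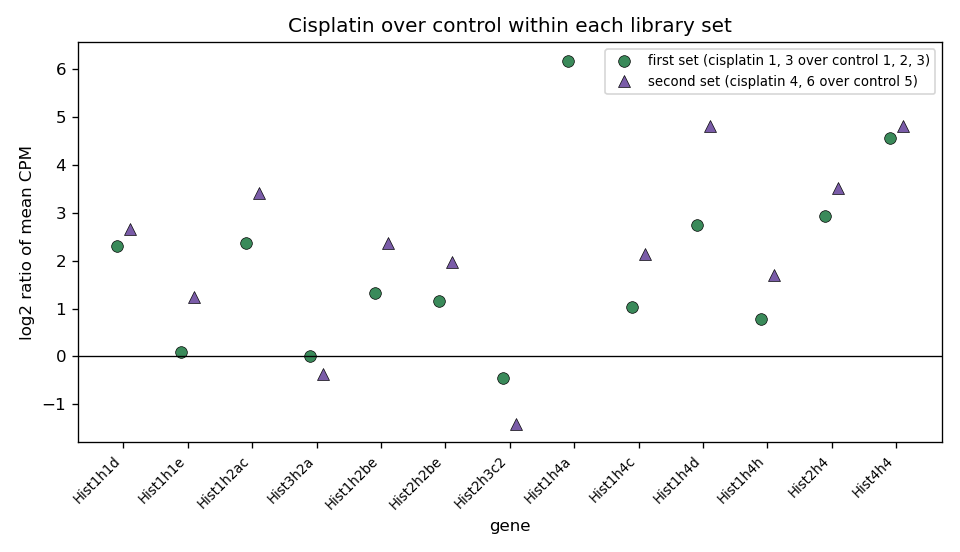
Log2 ratio of mean CPM, cisplatin over control, of the 13 histone genes within the first library set (circles) and the second (triangles), with a line at 0 for equal levels. The 10 called genes lie above 0 in both sets, except that Hist1h4a has no value in the second set because control 5 had 0 counts.

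Genes that make, process and load histones were taken from fixed lists. For histone mRNA transcription and 3′ end processing, 16 of 35 listed genes had values and all 16 were tested. None was called higher and 1, Ctif, was called lower, with a list median of 0.15. Of all genes tested, 19.2% were called higher and 15.7% lower. Ctif, a cap-bound factor for translation that also serves histone mRNAs, fell by 1.03 on the log2 scale (SE 0.32, adjusted p = 0.0227), from 24.1 ± 2.58 to 11.7 ± 5.45 CPM. Npat, which activates histone gene transcription, stood at -0.08 (adjusted p = 0.827), and its partner in the histone locus body, Casp8ap2, at 0.26 (adjusted p = 0.433). Snrpe, an Sm protein of snRNPs, stood at 1.35 (adjusted p = 0.0654) and did not pass. Slbp was not analysed here.

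Among histone chaperones, 14 of 26 listed genes were tested, 2 were called higher and 0 lower (0.39 median). The share called higher was no larger than the 19.2% of all genes tested. Asf1b, which delivers newly made H3 and H4 and is linked to proliferating cells, rose from 1.44 ± 0.576 to 5.96 ± 2.09 CPM, by 2.04 on the log2 scale (SE 0.38, adjusted p = 0.00187). Spty2d1, a chaperone of H3 and H4, rose by 1.16 (SE 0.21, adjusted p = 0.0013).

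Of 16 genes listed as replication-independent histones, 11 rows had values, with H2afb1 repeated. Of these rows 7 were tested, 2 were called higher and 0 lower (0.54 median). With 7 genes this is near the 19.2% of all genes called higher. H1fx, a linker histone variant, rose by 2.11 (SE 0.60, adjusted p = 0.0155), from 0.609 ± 0.140 to 2.68 ± 2.01 CPM. H2afx, the variant that is phosphorylated at DNA breaks, stood at 12.6, 11.6, 13.4 and 16.6 CPM in control and 15.6, 19.5, 43.5 and 50.6 CPM in cisplatin libraries, a change of 1.25 (SE 0.37, adjusted p = 0.0184), with overlap at control 5 and cisplatin 1. H3f3b, which encodes H3.3, had 357.0 ± 25.7 CPM in control and 685 ± 87.4 CPM in cisplatin libraries. Its log2 fold change of 0.94 (SE 0.16, adjusted p = 0.00091) was under the fold threshold.

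DNA replication genes are used in the same phase of the cell cycle as the histone genes. Of 48 listed, 25 were tested, 12 were called higher and 0 lower, where 19.2% of all genes tested were called higher and 15.7% lower. The list median was 0.96, against 0.08 over all genes. The largest changes were those of Cdt1, a replication licensing factor, at 2.52 (SE 0.45, adjusted p = 0.00138), Uhrf1, which maintains DNA methylation at new DNA, at 2.30 (SE 0.30, adjusted p = 0.000216), and Cdc6, which loads the helicase, at 2.07 (SE 0.41, adjusted p = 0.0026). Summed over the list, the level was 312 to 357 CPM in control and 508 to 779 CPM in cisplatin libraries, with no overlap. Cisplatin 4 and 6 were the highest, as for the summed histone genes.

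Markers of other cell types moved with the treatment too. Of 11 kidney epithelial markers tested, 8 were called lower and 1, Aqp2 of the collecting duct, higher, where 15.7% of all genes tested were called lower and 19.2% higher. The largest changes were those of Slc34a1, Lrp2 at -4.43 and Slc5a2 at -3.85, all of the proximal tubule. The summed level of the list fell from 53730 to 68690 CPM in control to 5310 to 13370 CPM in cisplatin libraries. For 14 leukocyte markers listed, 8 rows had values, with Itgam repeated. Of these rows 7 were tested, 4 were called higher and 2 lower, beside the same shares of all genes. The summed level overlapped, at 56.7 to 101.7 and 39.4 to 102.3 CPM. S100a8, of neutrophils, was called higher at 3.34, from 0 to 7 counts in each control library, and Itgam, of myeloid cells, at 3.08. S100a9 was called higher at 2.50 and Cd79a at 2.40. Nkg7, of cytotoxic lymphocytes, was called lower at -3.79, and Ptprc at -1.44. Lyz2 was not called, at -0.34 (adjusted p = 0.623, edgeR). The part of changed cell shares in the histone result was not tested.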

How the data were processed

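Kidney RNA was sequenced as 8 libraries, 4 per group. Per the labels and the study's methods, the authors trimmed reads with fastp, aligned them to GRCm38 with HISAT2 and deposited raw read counts per gene. The counting tool, annotation release and strand setting are not given in the sources used here. The methods and the labels name different library kits. Of 53715 rows, the 35880 with 8 values were used. The 17835 rows with 10 values, and with them 2 unnamed columns, were not. Gene coordinates were checked against GENCODE M21, where 34923 of the used rows matched. Genes were filtered with filterByExpr, normalized by TMM and tested with the quasi-likelihood test of edgeR 4.0.16 in R 4.3.3, with Benjamini-Hochberg adjustment over all genes. The standard error is the absolute log2 fold change divided by the square root of F. The smallest measurable level was taken as 3 counts, at most 0.266 CPM in a control library, which covers counting error only. DESeq2 1.42.0 served as an alternative. Every histone gene tested was named. Of each other list, the up to 3 called genes with the largest log2 fold change were named. Outside this rule, H3f3b, Npat, Casp8ap2, Snrpe, Rn7sk, Scarna2, Aqp2 and the remaining leukocyte markers tested were named with their values seen. Members and lists were chosen with earlier results of these data known. Stem-loops, 150-base stretches and motifs were searched by exact letters. The procedure was tested on simulated data.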

Additional observations from a re-analysis of the deposited data

Results flagged for a closer look

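In control 5, Hist2h3c2 stood at 3.224 CPM, while the other control libraries stood at 0.638 to 0.986. The level of all H3 genes summed was 3.224 CPM in that library as well, since Hist2h3c2 was the only H3 gene with counts in the controls. Hist1h4a stood at 0.07977 CPM in control 2, which is 1 count, and at 0 in the other controls. Each was a single library whose distance from its group passed Dixon's critical value for 4 samples. In all, 38 groups of values were examined, and chance marks about 1 in 20.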

How the results depend on the processing

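Depth limits these results: 17 of 30 genes were too low to test, and rows with 10 values were not used. The count of histone genes called higher was 10 and stayed at 8 to 11 except under a pair of settings, and 0 were called lower under every setting tried. With at least 10 counts in every library 5 genes were tested and 3 called higher, where 14.7% of all genes were. With RNAs without a poly(A) tail as a covariate 0 were called, and Hist1h1e, Hist1h2ac, Hist1h4c and Hist1h4h stood at -1.141, -0.1827, -0.9664 and -1.781. The cause was not tested, and the covariate followed the treatment. Leaving out 1 library each gave 9 to 10 calls, where 16.9% to 20.1% of all genes were called higher. With the replicate number as a block 9 were called, where 18.7% of all genes were called higher. Hist1h4h moved to 0.44 in that fit (adjusted p = 0.342). Controls and cisplatin libraries share the numbers 1 and 3 alone. The contrast of the block fit therefore rests on the libraries with these numbers, all of the first library set. Its cisplatin libraries, 1 and 3, are those with almost no Y-linked counts, and the fit cannot tell that apart from the treatment. For numbers 1 and 3 the correlation of deviations from the group means was 0.249 and 0.279, and the labels give no pairing. Hist3h2a, at -0.02, turned positive with upper quartile scaling (0.04866), total library size (0.5491), at least 10 counts (0.01279), the block (0.1051), the covariate without Gm26917 (0.3075), cisplatin 1 and 3 left out (0.1753), without control 5 (0.2054) and without cisplatin 3 (0.09845). With 1 library left out it ranged from -0.1457 to 0.2054. Hist2h3c2 turned to 0.2566 with the covariate without Gm26917 and to 0.06115 without control 5, and ranged from -0.9244 to 0.06115 with 1 library left out. None of these values passed the test. Scaling by total library size moved the median of all genes from 0.08 to 0.64, and the split of all calls from 1754 higher and 1434 lower to 3174 and 803. It called 11 histone genes, with Hist1h1e at 1.26 added, where 34.7% of all genes were called higher. Leaving out cisplatin 1 and 3 called 11 too, where 21.4% of all genes were called higher. The last setting and the covariate without Gm26917 were chosen after seeing the data.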
